A study of Mus musculus with 4 samples.

Results

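The 80 mouse genes described here were the interleukins and their receptors that had a probe on the array: every gene whose symbol in the deposited table starts with Il and a digit, with Il6 and Il1b left out. They were 80 of 24561 gene symbols on the array and were read by 103 probes. By their known roles 35 were ligands, 39 were receptor chains or receptor-like proteins, 4 were secreted inhibitors (Il1rn, Il1f5, Il18bp and Il22ra2) and 2 were other genes that share the symbol (Il4i1 and Il1bos). The rule used names and no measured value, although the family was picked with earlier results of these data known.

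L1210 is a mouse lymphocytic leukaemia cell line of the DBA strain (subline 212). It was infected with lentivirus, and cells that expressed green fluorescent protein were sorted to give 4 stable lines. These are L1210-control, called the control line below, and the Fbxw11a, Fbxw11c and Fbxw11d lines (L1210-Fbxw11a and so on), which were made to overexpress the full-length form of Fbxw11 and its shorter splice forms c and d. Fbxw11 is an F-box protein, the part of a ubiquitin ligase that selects proteins for degradation. Each line was a sorted population from an established cell line, and RNA of each was hybridised to 1 Agilent 1-colour array, so there were no replicates, no p-value is given and every difference is between single arrays.

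Slide 1 held all arrays but that of the Fbxw11d line, which was the only array of slide 2, so there slide and variant cannot be told apart. The paper reports that real-time RT-PCR and western blotting verified high expression of the variants in these lines. On both probes for Fbxw11 the array signals were 1.02- to 1.24-fold those of the control line in the 3 variant lines. Whether these probes lie in the introduced sequence was not given in the sources used here. Of 11 B lineage markers 6 were well above background on every array, and Cd79b, Ebf1, Igll1, Rag1 and Ms4a1 on none. T lineage markers were measured for 9 or 10 of 13 genes and macrophage markers for 7 of 10 on each array, with Cd3e, Cd4, Cd68 and Itgam measured in all lines and Cd3d, Cd3g, Thy1, Lyz2, Fcgr1 and Msr1 on no array. Of the T lineage list Zap70 was 2.14-fold lower in the Fbxw11c line. The summed macrophage marker signal, carried by Cd68 and Itgam, was 14754 in the control line and 11239 to 12511 in the variant lines, with 1 of its genes past 2-fold, Csf1r, which was 2.18-fold lower in the Fbxw11d line. Emr1 of that list was 1.88-fold higher in the Fbxw11a and Fbxw11d lines and 1.36-fold lower in the Fbxw11c line. The summed B lineage signal, carried by Blnk, was 18798 in the control line and 21406 to 23611 in the variant lines. Of the 9 fibroblast markers 1, Col1a2, was 2-fold or more higher, at 2.72- to 4.30-fold in the variant lines, while the list had median log2 ratios of -0.02, 0.06 and 0.33 in the Fbxw11a, Fbxw11c and Fbxw11d lines. The part of these shifts in the differences below was not tested.

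Interleukins are secreted proteins through which blood cells and tissues instruct each other. Most act by bringing together a private receptor chain and a shared one, such as the common gamma chain (Il2rg), gp130 (Il6st) or the IL-1 receptor accessory protein (Il1rap). The shared chains then engage Janus kinases and Stat factors, or, for the IL-1 and IL-17 families, adaptors that lead to NF-κB. Lymphoid leukaemia cells can carry receptors for cytokines that they do not make.

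The findings below rest on single 60-base probes, and the first 30 bases of those that carried them are shown 5′ to 3′ in lower case. Il1f6, Il1f9 and Il17re are shown because they differed 2-fold or more in more than 1 variant line, Il9 because it was measured in a single line, and both probes of Il17d because their ratios differed in size. The probes lie at chr2:24081127-24081186 (Il1f6), chr2:24048293-24048352 (Il1f9), chr6:113420078-113420137 (Il17re), chr13:56580678-56580737 (Il9, minus strand), chr14:58161931-58161990 (Il17d, brighter probe) and chr14:58161418-58161477 (Il17d, other probe), in mm9 coordinates of the deposited files and on the plus strand unless stated. Whether each lies in coding sequence or in a 3′ UTR was not looked up.
Il1f6: atgcagaacatcttaccatgttttcatcca
Il1f9: ttcaatttagatataaagtcttaaactcag
Il17re: gctgccaaagatgactaccaaggctcaacc
Il9: aaagccgaccatgaagacagatgctattta
Il17d, brighter probe: gcgcccctttgttctttagcttatggatgg
Il17d, other probe: gcgaactccagcatggacaagctgctgctg

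Promoter windows of 300 bases (250 before and 50 after the start of the gene, RefSeq, GRCm38.p6) were held for 63 of the 80 genes and searched on both strands for the κB consensus, which NF-κB binds, and for the AP-1 motif TGANTCA. The κB consensus was found in 8.46% of all 32851 windows and in 7 of the 78 windows of the family, or 8.97%. The AP-1 motif was found in 7.81% of all windows and in 13 of the 78, or 16.7%. Of the 12 genes that differed 2-fold or more between lines, 10 had a window, and among these Il12rb2 and Il16 held the κB consensus and Il16, Il1rn and Il9 the AP-1 motif. No match was found in the windows of Il1f9 and Il17re, and none was held for Il1f6 and Il10ra. The windows of Il9 (chr13:56482208-56482507, minus strand), Il1rn (chr2:24336610-24336909, plus strand, the only one of its windows with a match) and Il12rb2 (chr6:67376139-67376438, minus strand) are printed, with the 1 match that each holds in capitals. Of the windows of Il16, which are not printed, 1 held 2 κB matches and another 1 AP-1 match. No match overlapped another, and a match is a description of letters, not a bound site.
Il9: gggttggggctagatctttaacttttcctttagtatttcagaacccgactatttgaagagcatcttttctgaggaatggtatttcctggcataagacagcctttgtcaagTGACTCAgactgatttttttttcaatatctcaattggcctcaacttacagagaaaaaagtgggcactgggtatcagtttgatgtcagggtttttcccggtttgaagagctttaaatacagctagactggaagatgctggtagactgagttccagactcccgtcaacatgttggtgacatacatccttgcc
Il1rn: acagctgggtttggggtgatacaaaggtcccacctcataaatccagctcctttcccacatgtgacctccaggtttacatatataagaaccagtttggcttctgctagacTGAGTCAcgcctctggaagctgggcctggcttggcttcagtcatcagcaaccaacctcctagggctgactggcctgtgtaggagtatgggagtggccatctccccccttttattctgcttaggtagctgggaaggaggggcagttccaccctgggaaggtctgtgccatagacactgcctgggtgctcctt
Il12rb2: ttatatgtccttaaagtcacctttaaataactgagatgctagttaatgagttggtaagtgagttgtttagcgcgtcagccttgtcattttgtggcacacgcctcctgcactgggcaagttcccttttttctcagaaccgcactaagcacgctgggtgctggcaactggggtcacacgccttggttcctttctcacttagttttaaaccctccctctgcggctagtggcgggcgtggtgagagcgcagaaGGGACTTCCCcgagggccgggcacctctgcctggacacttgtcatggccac

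Receptor genes were more often measured than ligand genes. A gene was called measured where the scanner software flagged at least 0.5 of the spots of its probe as well above background. In the order control, Fbxw11a, Fbxw11c and Fbxw11d line, 18, 18, 18 and 19 of the 35 ligands passed, and 27, 28, 27 and 30 of the 39 receptors. Over all genes 68.7%, 71.6%, 70.4% and 73.7% passed. On at least 1 array 22 ligands (62.9%) and 30 receptors (76.9%) were measured, beside 77.4% of all genes. On all 4 arrays the counts were 15 ligands (42.9%) and 27 receptors (69.2%), beside 66.2% of all genes. The lowest signal well above background, on the scale of the control array, was 18.1, 14.4, 14.9 and 10.4 in the order of the lines, so that dimmer probes could pass on the Fbxw11d array. A mean that takes in spots not well above background could lie lower, as for Il10 in the control line, at 14.8. The brightest probe stood for a gene, so genes with several probes had more chances to pass. Of the 20 family genes with several probes, Il17d, Il19, Il20 and Il24 were ligands, Il1f5 was an inhibitor and the rest were receptors. The part of this in the higher share of receptors was not tested. These shares describe probes on 4 arrays and were not tested.

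In the IL-10 family all 5 ligands, Il10, Il19, Il20, Il22 and Il24, and 4 of 5 receptors were measured on every array by their brightest probe. Il20, Il20rb and Il22ra1 each had another probe that was well above background on no array. Its signals were 2.07 to 9.93, 2.07 to 4.19 and 3.74 to 6.67 for these genes. In the gp130 family all 5 receptors, Il6st, Il6ra, Il11ra1, Il27ra and Il31ra, and 2 of 3 ligands were. Of 7 ligands in the group of common gamma chain cytokines and IL-13, which shares the IL-4 receptor chain but not the gamma chain, only Il15, a growth factor of natural killer cells and memory T cells, was measured on all 4 arrays, while 6 of 10 receptor chains of that group were. The T cell cytokine genes Il4, Il13 and Il5, which are neighbours on chromosome 11, were measured on no array. The 24 genes measured on no array had signals of 2.07 to 15.1 on the scale of the control array.

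**Figure D1:**
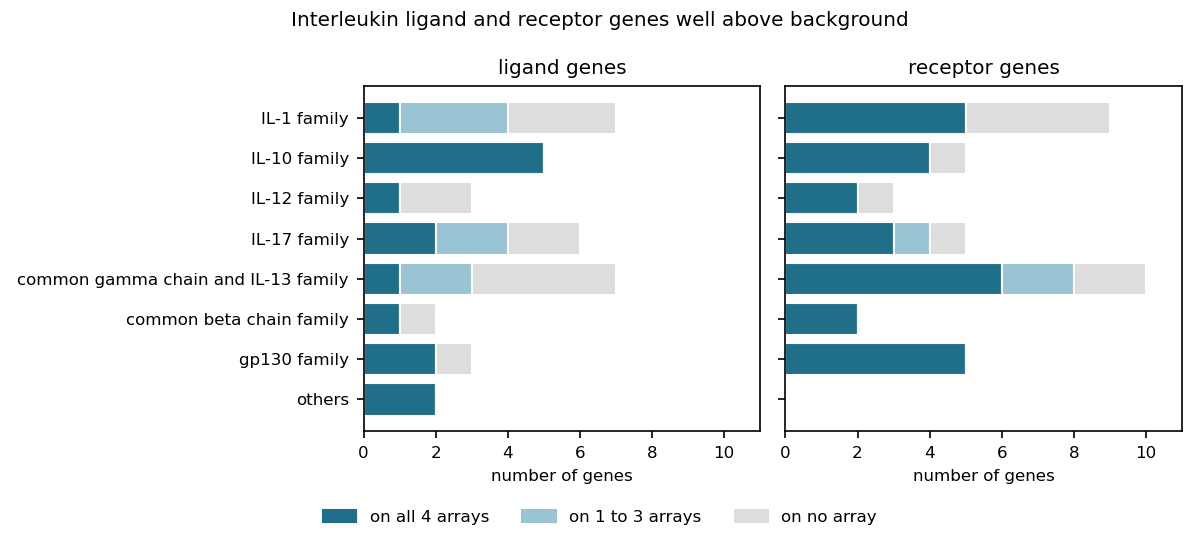
Bars give the number of ligand genes (left) and receptor genes (right) of each interleukin family, split by whether the probe was well above background on all 4 arrays, on 1 to 3 arrays or on no array. By the brightest probe of each gene, all 5 IL-10 family ligands and all 5 gp130 family receptors were measured on every array. Of the 7 ligands grouped as common gamma chain cytokines and IL-13, 4 were measured on none.

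Ligands were set against their receptors by a list of known partner chains. Each gene was read by its brightest probe, and the other probe of Il22ra1 was well above background on no array. Of 31 ligands with listed partners, 5 were measured on all arrays together with every listed chain: Il10 with Il10ra and Il10rb, Il11 with Il11ra1 and Il6st, Il22 with Il22ra1 and Il10rb, Il27 with Il27ra and Il6st, and Il3 with Il3ra. Another 7 ligands, Il12a, Il13, Il1a, Il31, Il33, Il4 and Il5, were measured on no array although every listed chain was measured on all of them. In 7 cases the ligand was measured on all arrays and some chain was not, as for Il18, whose accessory chain Il18rap was measured and whose binding chain Il18r1 was not. In bulk RNA, fewer cells that express a gene and less RNA per cell cannot be told apart.

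Signals were scaled by the 75th percentile of each array and are given on the scale of the control array, with the scanner software's error for 1 spot. Where a probe was not well above background in a line, its difference is given as a bound ("at least N-fold") against the lowest signal well above background on that array, or against its own signal where that was higher. A difference of 2-fold or more was counted, the threshold the study used.

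Against the control line, the Fbxw11a line had 2 genes higher and 2 lower among the 52 genes measured in either line. The same 2-fold rule was met by 2.43% of all 17931 genes for higher and 2.02% for lower. The Fbxw11c line had 3 higher and 3 lower of 50, where 1.61% of all genes were higher and 2.27% lower. The Fbxw11d line had 1 higher and 4 lower of 55, where 1.05% of all genes were higher and 4.7% lower. In all, 10 genes differed from the control line in at least 1 line, 2 of them (Il1f6 and Il17re) in all 3 lines, Il1f9 in 2, and the other 7 in 1 line. Between variant lines 2 of 51 genes differed for the Fbxw11c line over the Fbxw11a line (4.22% of all genes), 6 of 55 for the Fbxw11d line over the Fbxw11a line (6.01%) and 4 of 54 for the Fbxw11d line over the Fbxw11c line (4.23%). These added Il12rb2 and Il16, which made 6 ligands, 5 receptors and 1 inhibitor in total. No share over all genes is given for the totals over lines, so whether they depart from the whole array was not tested. The 3 comparisons with the control line share that 1 array, so a gene that is high or low there alone differs in all of them.

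**Figure D2:**
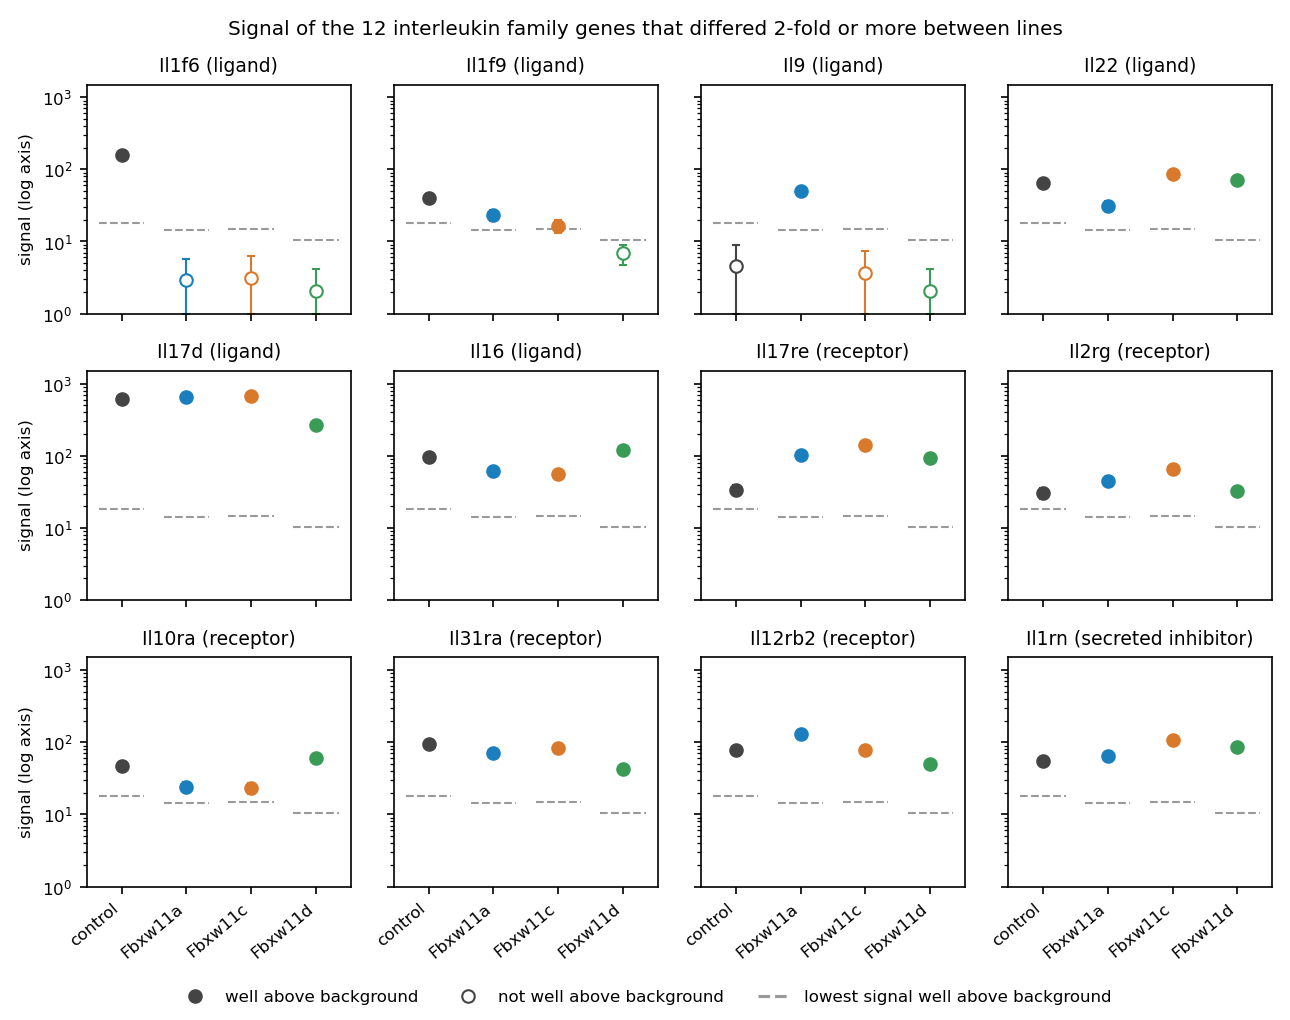
Each panel gives the signal of 1 gene on the 4 arrays, on a log axis and on the scale of the control array; bars are the scanner software's error for 1 spot and stop at 1 where they would go below it, open circles are signals not well above background, and dashed lines are the lowest signal well above background on each array. Il1f6 lies at 157 in the control line and at 2.07 to 3.14 in the variant lines, and Il17re is lowest in the control line.

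Il1f6, which encodes the alarm cytokine IL-36α, gave the clearest difference among the ligands. Signals were 157 ± 16.1 in the control line, 2.89 ± 2.91 in the Fbxw11a line, 3.14 ± 3.16 in the Fbxw11c line and 2.07 ± 2.08 in the Fbxw11d line. It was well above background in the control line only, and no variant line overlapped that level. It was at least 10.9-fold lower in the Fbxw11a line, at least 10.5-fold lower in the Fbxw11c line and at least 15.1-fold lower in the Fbxw11d line. These bounds hold for the processing reported. In each line the difference stayed beyond 2-fold under the 8 alternatives that gave a value, with smallest log2 ratios of -1.68, -1.72 and -2.23 in the same order.

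Il1f9, its neighbour, encodes IL-36γ. Signals were 40.2 ± 5.44 in the control line, 23.2 ± 3.75 in the Fbxw11a line, 16.5 ± 3.56 in the Fbxw11c line and 6.88 ± 2.19 in the Fbxw11d line, where it did not clear the background flag. It was lower in every variant line, with log2 ratios of -0.79 ± 0.30 and -1.28 ± 0.37 in the Fbxw11a and Fbxw11c lines and at least 3.86-fold lower in the Fbxw11d line. The SD between spots at the same signals was 0.48 and 0.60 for these ratios, so that in the Fbxw11a line lay within 2 SDs. The receptor chain of both, Il1rl2, was measured on no array, with signals of 2.07 to 7.50. The shared chain Il1rap was measured on all, at 185, 209, 272 and 261 in the order of the lines above.

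These genes lie in a row of 6 IL-1 family genes on chromosome 2 (chr2:24015564-24205153, mm9, from the first to the last probe): Il1f8, Il1f9, Il1f6, Il1f5, Il1f10 and Il1rn. Il1f8 (IL-36β) and Il1f5 (the IL-36 receptor antagonist) were measured on no array. Il1f10 (IL-38) was not well above background in the control line, at 20.3, and was measured in the variant lines at 24.2, 27.0 and 24.2. Il1rn, which encodes the IL-1 receptor antagonist, ran the other way from Il1f6 and Il1f9. Signals were 54.2 ± 6.87 in the control line, 65.5 ± 7.40 in the Fbxw11a line, 108 ± 11.4 in the Fbxw11c line and 86.0 ± 8.85 in the Fbxw11d line. It reached 2-fold in the Fbxw11c line, with a log2 ratio of 1.0 ± 0.24 that lies on the threshold.

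**Figure D3:**
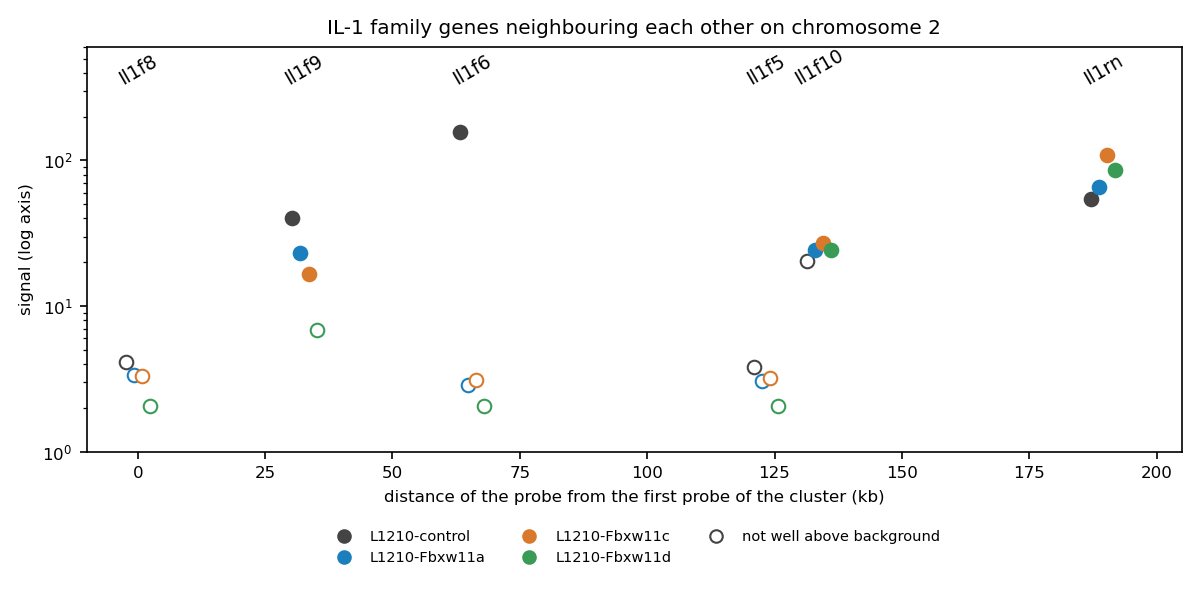
Signals of the 6 neighbouring IL-1 family genes on a log axis against the distance of their probes from the first probe of the row in kb; points are the 4 lines, offset sideways within a gene for visibility, and open circles are not well above background. Il1f9 and Il1f6 are highest in the control line, and Il1rn is lowest there.

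Il9, a growth factor of T cells and mast cells, was measured in 1 line. Signals were 4.51 ± 4.53 in the control line, 50.4 ± 5.45 in the Fbxw11a line, 3.68 ± 3.69 in the Fbxw11c line and 2.07 ± 2.08 in the Fbxw11d line. The Fbxw11a array stood alone, at least 2.79-fold above the control line. The Fbxw11c line was at least 3.39-fold and the Fbxw11d line at least 4.85-fold below the Fbxw11a line. Both its receptor chains, Il9r and Il2rg, were measured on every array, Il9r at 45.4 to 61.0 on its brighter probe, which was lowest in the Fbxw11a line. A dimmer probe of Il9r was well above background in the Fbxw11a line only, at 24.1 beside 6.08 to 9.02 in the others.

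Il22, a cytokine that acts on epithelia, was lowest in the line where Il9 was measured. Signals were 64.4 ± 7.46 in the control line, 31.5 ± 4.42 in the Fbxw11a line, 85.9 ± 9.18 in the Fbxw11c line and 70.4 ± 7.35 in the Fbxw11d line. The log2 ratio to the control line was -1.03 ± 0.26 in the Fbxw11a line, and 0.42 ± 0.23 and 0.13 ± 0.22 in the others. The Fbxw11c and Fbxw11d lines were 2.73-fold and 2.24-fold above the Fbxw11a line.

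Il17d, an IL-17 family ligand, differed in the Fbxw11d line alone. Its brighter probe gave 622 ± 62.3 in the control line, 650.0 ± 65.1 in the Fbxw11a line, 666 ± 66.7 in the Fbxw11c line and 263 ± 26.4 in the Fbxw11d line, where the log2 ratio was -1.24 ± 0.20. The other probe gave 85.4, 82.2, 77.1 and 53.9 in the same order, lowest in the same line but with a log2 ratio of -0.66. Direction was thus shared by both probes and the 2-fold difference was not.

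Il16, a chemoattractant for CD4+ cells, did not reach 2-fold against the control line in any line. Signals were 95.3 ± 10.4 in the control line, 62.1 ± 7.06 in the Fbxw11a line, 56.6 ± 6.59 in the Fbxw11c line and 122 ± 12.4 in the Fbxw11d line. It was 2.15-fold higher in the Fbxw11d line than in the Fbxw11c line.

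The 5 ligands of highest signal were Il24, Il34, Il17d, Il27 and Il11, and apart from Il17d they stayed below 2-fold in every comparison. Il34, a ligand of the CSF-1 receptor, had log2 ratios of 0.11, -0.12 and 0.37 in the Fbxw11a, Fbxw11c and Fbxw11d lines. Il27, a subunit of IL-27, had -0.05, 0.26 and -0.06, and Il11, which signals through gp130, had -0.45, -0.41 and -0.06. Il24, an IL-20 subfamily cytokine, had 0.48, 0.14 and 0.35 on the probe used, and -0.58, -0.51 and -0.36 on its dimmer probe, so its direction depended on the probe. Il10, the anti-inflammatory cytokine, was read by 10 spots, and by 9 in the Fbxw11c line. Of these 5, 8, 6 and 10 were well above background in the order of the lines, at mean signals of 14.8, 23.0, 16.1 and 19.6.

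Among the receptors Il17re, the receptor chain for IL-17C, was higher in all 3 variant lines. Signals were 33.9 ± 5.06 in the control line, 104 ± 10.8 in the Fbxw11a line, 143 ± 14.7 in the Fbxw11c line and 94.6 ± 9.69 in the Fbxw11d line. The 3 variant lines lay 3.07-, 4.22- and 2.79-fold above the control line, with log2 ratios of 1.62 ± 0.26, 2.08 ± 0.26 and 1.48 ± 0.26. After normexp background correction with an offset of 50 added to every signal, the log2 ratios were 0.82, 1.07 and 0.53, so that 2-fold was reached in the Fbxw11c line only. Its ligand Il17c and its partner chain Il17ra were each well above background on the Fbxw11d array only, at 23.2 and 10.9. The second of these signals lies below the lowest that passed on any other array.

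The probe of Il17rc, the partner chain for IL-17A and IL-17F, lies 13.1 kb from that of Il17re. Its log2 ratios were 0.39, -0.03 and 0.39, all below 2-fold. Il17rd, a receptor-like protein of the same family, had -0.05, 0.30 and 0.40. Among the IL-17 receptors the 2-fold differences were thus those of Il17re.

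Il2rg, the common gamma chain that IL-2, IL-4, IL-7, IL-9, IL-15 and IL-21 share, was highest in the Fbxw11c line. Signals were 30.3 ± 4.98 in the control line, 44.6 ± 5.47 in the Fbxw11a line, 66.7 ± 7.42 in the Fbxw11c line and 32.2 ± 3.84 in the Fbxw11d line. The Fbxw11c line was 2.20-fold above the control line and 2.07-fold above the Fbxw11d line.

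Il10ra, the ligand-binding chain of the IL-10 receptor, split the variant lines. Signals were 47.5 ± 6.13 in the control line, 24.1 ± 3.97 in the Fbxw11a line, 23.2 ± 4.02 in the Fbxw11c line and 61.5 ± 6.49 in the Fbxw11d line. The log2 ratios to the control line were -0.98, -1.04 and 0.37, with the ratio in the Fbxw11c line at -0.95 in the authors' normalized values. The Fbxw11d line was 2.55-fold above the Fbxw11a line and 2.65-fold above the Fbxw11c line. After normexp correction the ratios to the control line were -0.35, -0.46 and -0.06, all of the same sign and less than 2-fold apart. The other chain of that receptor, Il10rb, had log2 ratios of -0.07, 0.01 and 0.17.

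Il31ra, a chain of the IL-31 receptor, was lowest in the Fbxw11d line. On the probe used, signals were 94.0 ± 10.1 in the control line, 71.9 ± 7.78 in the Fbxw11a line, 83.7 ± 8.93 in the Fbxw11c line and 42.3 ± 4.72 in the Fbxw11d line, a log2 ratio of -1.15 ± 0.22. That ratio passed 2-fold under 3 of 8 alternatives. Its other probe was well above background on no array, at 2.07 to 3.71. Its neighbour on chromosome 13, Il6st, which encodes gp130, had log2 ratios of -0.05, 0.02 and 0.18.

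Il12rb2, the signalling chain of the IL-12 receptor, was highest in the Fbxw11a line on its brighter probe. Signals were 78.8 ± 8.69 in the control line, 128 ± 13.2 in the Fbxw11a line, 79.0 ± 8.50 in the Fbxw11c line and 50 ± 5.41 in the Fbxw11d line. The Fbxw11d line was 2.57-fold below the Fbxw11a line, and neither reached 2-fold against the control line. Its other probe was well above background on no array, at 15.3, 3.68, 8.32 and 4.86, so a mean over both probes, with a log2 ratio of -0.68 in the Fbxw11a line, takes in signals at background level and gives no measured direction. Il12rb1, the chain it pairs with, had log2 ratios of 0.09, 0.12 and -0.02 on its brighter probe. Its dimmer probe, well above background on all arrays, gave 208, 217, 186 and 125, with a log2 ratio of -0.74 in the Fbxw11d line.

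The 8 receptors of highest signal, Il15ra, Il17rc, Il6ra, Il11ra1, Il12rb1, Il10rb, Il3ra and Il6st, were all below 2-fold in every comparison. Il15ra, which presents IL-15, had log2 ratios of 0.00, -0.09 and -0.03 on its brighter probe and -0.45, -0.50 and 0.08 on the other, which was also measured on all arrays. Of the 9 genes of the family with a pair of probes measured on all arrays, 6, 4 and 7 had ratios of the same sign on both in the Fbxw11a, Fbxw11c and Fbxw11d lines. Il6ra, the IL-6 receptor chain, had -0.15, -0.19 and -0.24. On the brightest probe of each gene Il11ra1 had the lowest ratio among these 8, -0.58 in the Fbxw11d line, and its signal may include a near-identical copy of the gene. Il3ra, the IL-3 receptor chain, had -0.10, -0.46 and -0.19.

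Ligands and receptors had similar middle ratios. The median log2 ratio to the control line over ligands measured in both lines was -0.04, -0.12 and 0.02 in the Fbxw11a, Fbxw11c and Fbxw11d lines (16, 17 and 16 genes), and the last was -0.27 after normexp correction. Over the 27 receptors it was 0.00, -0.03 and 0.12, and over all genes 0.00, 0.02 and 0.04. The 68 genes with no 2-fold difference between any lines included 44 that were measured on at least 1 array. Where both arrays measured the gene, their log2 ratios against the control line ran from -0.72 (Il15 in the Fbxw11c line) to 0.95 (Il4i1, a secreted amino acid oxidase, in the Fbxw11a line). Il17a, the ligand that defines the IL-17 family, was not well above background in the Fbxw11a line and at least 1.92-fold lower there. Among the ligands of this group Il18 was highest, at 0.79 in the Fbxw11a line, and among the receptors Il5ra, at 0.83 in the Fbxw11d line.

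**Figure D4:**
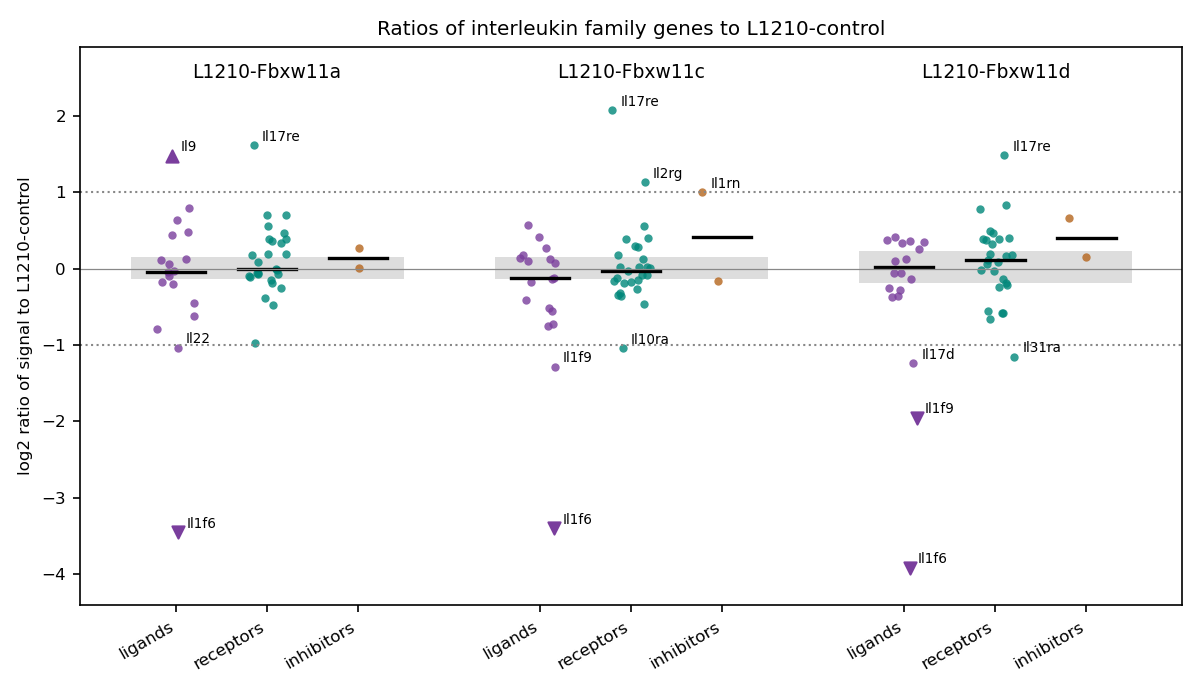
Log2 ratio of signal to the control line for ligands, receptors and secreted inhibitors in the 3 variant lines; dots are genes well above background in both lines, triangles are bounds of 2-fold or more for genes measured in only 1 of them, black bars are medians of the dots, grey bands span the 25th to 75th percentile of all genes, and dotted lines mark 2-fold. Il1f6 lies lowest in each line and Il17re highest.

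The 45 genes of the family measured on all 4 arrays spanned a median of 0.55 on the log2 scale between their lowest and highest line, beside 0.35 over all 16249 genes measured on all arrays. The span was 2-fold or more for 9 of the 45, or 20%, beside 8.39% of all genes. The family also holds many dim probes, for which spots vary more, and the part of this in the wider span was not tested. From probes with several spots, the SD of a log2 ratio of 2 single spots on 1 array was 0.39 to 0.85 for signals of 20 to 50, 0.28 to 0.35 for 50 to 100 and 0.12 to 0.18 for 100 to 500.

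Of the 10 ratios to the control line of 2-fold or more that were measured on both arrays, 8 were larger than 2 such SDs. These were Il17re in all 3 lines, Il22 in the Fbxw11a line, Il1f9, Il2rg and Il1rn in the Fbxw11c line and Il17d in the Fbxw11d line. The others were Il10ra in the Fbxw11c line, at 1.04 in size with an SD of 0.54, and Il31ra in the Fbxw11d line, at 1.15 with 0.64. After normexp correction 2-fold was reached by 1, 2 and 3 genes in the order of the variant lines, namely Il1f6 in all of them, Il17re in the Fbxw11c line, and Il1f9 and Il17d in the Fbxw11d line. The spread above is between spots of an array and holds no difference between cultures.

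**Figure D5:**
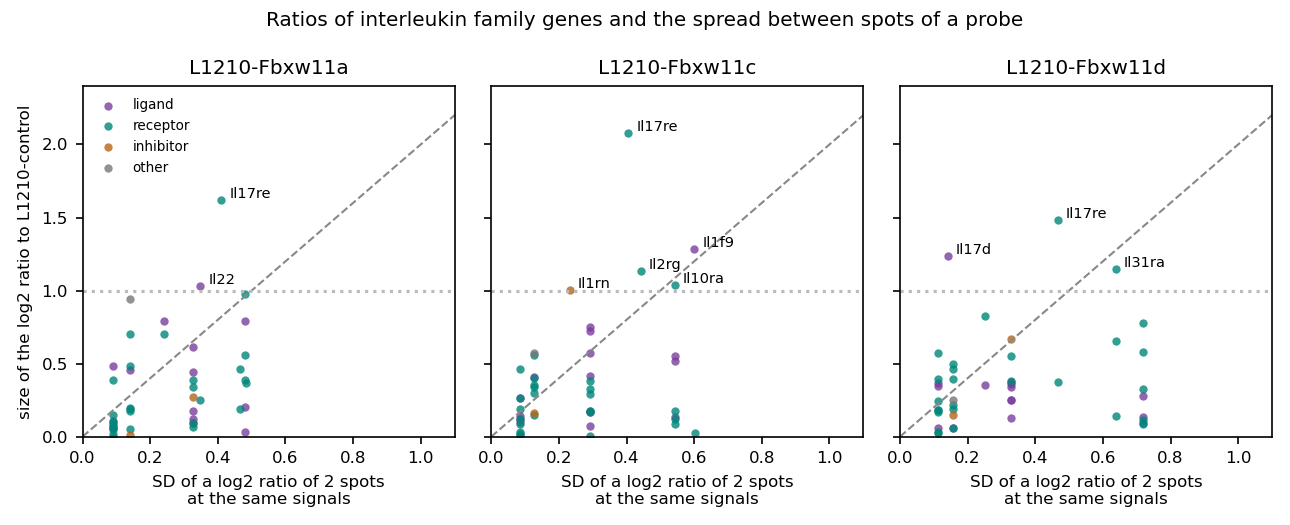
Size of the log2 ratio to the control line of each gene measured in both lines by a single spot, against the SD that a log2 ratio of 2 spots has at the same signals; the dashed line is 2 SD and the dotted line 2-fold. Il17re lies above the dashed line in all 3 panels, and Il10ra in the Fbxw11c panel and Il31ra in the Fbxw11d panel lie just below it.

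The genes that work with the family were counted from fixed lists. Of 16 partner chains and cytokines, 1 was 2-fold or more lower in each variant line, beside 2.02%, 2.27% and 4.7% of all genes in the order of the lines, and none was higher. In each line this was Csf2, which encodes GM-CSF, at 74.7 in the control line, 9.41 (not well above background) in the Fbxw11a line, 22.5 in the Fbxw11c line and 18.4 in the Fbxw11d line. The common beta chain Csf2rb, which IL-3, IL-5 and GM-CSF share, had log2 ratios of -0.07, 0.38 and -0.46. Crlf2, the receptor chain for TSLP, had 0.29, 0.24 and 0.09.

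Of 28 signal transducers, Casp4, an inflammatory caspase, was lower in all 3 lines, at 360 in the control line and 160, 146 and 139 in the variant lines. Casp1, which processes IL-18, was lower in the Fbxw11c line, at 102 beside 267 in the control line. Stat4, which acts downstream of IL-12, was measured in the Fbxw11c line only, at 55.6, a log2 bound of 1.62. The kinases Jak1, Jak2, Jak3 and Tyk2 and the adaptor Myd88 were below 2-fold in every line, with log2 ratios of -0.62 (Tyk2 in the Fbxw11d line) to 0.56 (Jak2 in the Fbxw11a line).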

How the data were processed

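RNA of 4 L1210 lines was measured on 1 Agilent 1-colour array each. The authors deposited Feature Extraction output, which gives a background-corrected signal intensity, an error and flags per spot (file headers name version 10.7.1.1, the submitters' processing notes 9.1), and a table of normalized log2 values with gene symbols and mm9 coordinates, whose normalization the sources do not name. The number of arrays limits the precision. From the intensities, log2 minus each array's 75th percentile was taken, outlier-flagged spots were dropped and a probe's spots averaged; the probe of highest mean signal stood for a gene. A probe was well above background if at least 0.5 of its spots were.

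Members, roles, partner and gene lists were chosen with earlier results of these data known. Named genes were those 2-fold or more apart between lines, the 5 ligands and 8 receptors of highest signal, and partner chains. Lists of 16 partner genes and 28 transducers, and of markers of B lineage, T lineage, macrophage, mast cell, fibroblast and all blood cells, were counted. The mast cell list had 3, 4, 3 and 5 of 8 genes well above background in the control, Fbxw11a, Fbxw11c and Fbxw11d lines, the fibroblast list 5, 7, 6 and 6 of 9 and the all blood list 2, 3, 2 and 2 of 3. Entrez IDs matched RefSeq for all 80 genes. Alternatives were normexp (limma 3.58.1, offset 50), quantile normalization, median centring, the authors' values, other filters, probes and thresholds. Computations used R 4.3.3, Python 3.11.15 and pandas 2.3.3.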

Additional observations from a re-analysis of the deposited data

Results flagged for a closer look

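Il10ra, Il12rb2, Il16 and Il22 had ratios to the control line of opposite sign in 2 variant lines that were themselves 2-fold or more apart, each ratio larger than the scanner software's error. Against the SD between spots at the same signals, the ratio of Il10ra in the Fbxw11d line was smaller (SD 0.47) and that of Il12rb2 in the Fbxw11d line barely larger (SD 0.64). With 1 array per line these differences were not tested. Il10ra had log2 ratios of -0.98 in the Fbxw11a line and -1.04 in the Fbxw11c line against 0.37 in the Fbxw11d line. After normexp correction these were -0.35, -0.46 and -0.06, so neither the opposite sign nor the 2-fold gap remained. Il12rb2 had 0.70 in the Fbxw11a line against -0.66 in the Fbxw11d line. These are from its brighter probe, and the other was well above background on no array. Il16 had -0.75 in the Fbxw11c line against 0.36 in the Fbxw11d line. Il22 had -1.03 in the Fbxw11a line against 0.42 in the Fbxw11c line. Il10ra, Il12rb2 and Il16 each involve the Fbxw11d array, which was alone on its slide.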

How the results depend on the processing

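Counts of genes 2-fold or more from the control line are given in the order Fbxw11a, Fbxw11c and Fbxw11d line, and were 4, 6 and 5 as reported. They were 1, 2 and 3 after normexp background correction, 9, 12 and 12 with no filter on dim probes, and 2, 2 and 2 at a threshold of 3-fold. Over all genes the counts were 798, 688 and 1060 as reported. Those fell to 249, 212 and 462 after normexp correction and to 356, 299 and 376 at 3-fold. With no filter they were 2004, 1837 and 2829. The counts thus moved in the same direction for the family and for all genes. At 1.5-fold the Fbxw11a line had 13 family genes and the Fbxw11d line 9. With both arrays required to be well above background the Fbxw11a line had 2 and the Fbxw11d line 3, and with the probe of lowest mean signal the Fbxw11d line had 3. The other 25 counts under alternatives, which include those of ligands and receptors measured on at least 1 array, were within 1.5 times. None of the ratios to the control line counted as 2-fold or more turned direction under the alternatives that gave a value. Smaller ratios that did include Il10ra in the Fbxw11d line under normexp (0.37 to -0.06) and Il24 in all 3 lines with its dimmer probe (0.48, 0.14 and 0.35 to -0.58, -0.51 and -0.36). The mean over probes of Il12rb2 in the Fbxw11a line (-0.68 beside 0.70) takes in a probe well above background on no array. Il10ra in the Fbxw11c line and Il31ra in the Fbxw11d line lay below 2-fold under normexp, quantile normalization, median centring and the authors' values, at -0.46 to -0.96 for Il10ra. Il17d in the Fbxw11d line was -0.95 as a mean over probes. Under normexp Il17re in the Fbxw11a and Fbxw11d lines, Il9 and Il22 in the Fbxw11a line, and Il1f9, Il1rn and Il2rg in the Fbxw11c line were also below 2-fold. Median centring moved the median of all genes in the Fbxw11d line by 0.22, and the receptor median there to 0.33. Under normexp the ligand median there was -0.27. The cause of these shifts was not tested. Dim signals set the limits: 24 of 80 genes were measured on no array. No paired analysis was possible because each line had 1 array.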
